A study of Mus musculus with 12 samples.

Results

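The hotspots described here are the autosomal places where meiotic recombination started both in Ankrd31 knockout mice and in wild type mice and that lay at the end of a gene. They were chosen as pairs of hotspots on chromosomes 1 to 19 that overlapped by at least 1 bp between the knockout and the wild type hotspot lists, and whose wild type centre lay at most 1 kb from an end, 5′ or 3′, of a protein-coding gene in the RefSeq annotation of GRCm38. They were thus selected on their presence in both lists, which depends on strength, and on position. The rule found 280 such pairs among 10760 autosomal shared pairs, in lists of 22034 knockout hotspots and 13480 wild type hotspots. Both lists come from whole testis of adult males. The knockout mice carried the allele Ankrd31 tm1Atot on a genetic background that the labels leave out, and the wild type mice were of the strain C57BL/6JCrl (B6). The assay was DMC1-SSDS, which enriches the single-stranded DNA bound by the recombinase DMC1. The series has 12 samples, of which 2 DMC1 samples per genotype bear on these lists, and it asks how loss of ANKRD31 changes where and how often recombination starts.

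Meiotic recombination begins with programmed DNA breaks, whose resected ends are coated by DMC1. In most mammals the histone methyltransferase PRDM9 sets the position of these breaks through its zinc fingers, mostly away from promoters, whereas animals without PRDM9 use promoters and other sites that carry its histone mark already. Many promoters of broadly expressed genes are rich in CpG dinucleotides, while promoters of tissue-restricted genes and the 3′ ends of genes are mostly poor in them. ANKRD31 is a partner of REC114, a component of the machinery that makes the breaks.

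The deposited strength of a hotspot is its read count minus an estimated background. The knockout list held 4203380 reads and the wild type list 4376692. Only 1 list per genotype was given, so no spread between animals is known, there is no test between genotypes, and genotype cannot be told apart from strain background or from a difference between libraries. Intervals for a single hotspot are 95% counting intervals (exact Poisson), those for a share are exact Clopper-Pearson intervals and those for a median come from the ranks of the hotspots. All cover counting error or the spread over hotspots, not over mice, and reads may hold copies of one molecule. Ratios are given as the log2 of knockout over wild type relative strength, where relative strength is strength divided by the median over autosomal shared hotspots, 151 in the knockout list and 182 in the wild type list. Since presence in both lists chose these hotspots, their strengths are a description.

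The promoters of 6 of the hotspots at transcription starts are shown because they span the contrast that runs through the results. They are the 3 with the highest and the 3 with the lowest knockout over wild type ratio among the 31 hotspots whose promoter window, 250 bases before to 50 after the annotated start, lay inside the hotspot in both lists. Sequences are from RefSeq, build GRCm38.p6, written 5′ to 3′ on the strand of the gene, with CG dinucleotides in capitals. They lie at chr10:19015361-19015660 on the minus strand for Tnfaip3, chr15:8168856-8169155 on the plus strand for Cplane1, chr5:121711359-121711658 on the plus strand for Atxn2, chr9:123034491-123034790 on the plus strand for Tgm4, chr5:137179115-137179414 on the minus strand for Gm31160 and chr2:29248050-29248349 on the minus strand for Ntng2.
Tnfaip3: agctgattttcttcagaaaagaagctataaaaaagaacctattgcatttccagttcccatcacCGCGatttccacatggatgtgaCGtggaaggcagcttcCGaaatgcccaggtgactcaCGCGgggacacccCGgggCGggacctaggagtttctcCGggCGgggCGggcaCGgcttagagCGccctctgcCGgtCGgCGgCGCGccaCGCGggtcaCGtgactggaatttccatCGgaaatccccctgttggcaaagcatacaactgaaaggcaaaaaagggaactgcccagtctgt
Cplane1: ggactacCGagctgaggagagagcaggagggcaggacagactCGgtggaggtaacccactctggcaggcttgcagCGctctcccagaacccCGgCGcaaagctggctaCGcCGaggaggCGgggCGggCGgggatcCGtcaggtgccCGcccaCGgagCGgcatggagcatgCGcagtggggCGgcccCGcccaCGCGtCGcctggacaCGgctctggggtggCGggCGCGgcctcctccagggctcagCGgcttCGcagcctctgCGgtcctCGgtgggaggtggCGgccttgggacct
Atxn2: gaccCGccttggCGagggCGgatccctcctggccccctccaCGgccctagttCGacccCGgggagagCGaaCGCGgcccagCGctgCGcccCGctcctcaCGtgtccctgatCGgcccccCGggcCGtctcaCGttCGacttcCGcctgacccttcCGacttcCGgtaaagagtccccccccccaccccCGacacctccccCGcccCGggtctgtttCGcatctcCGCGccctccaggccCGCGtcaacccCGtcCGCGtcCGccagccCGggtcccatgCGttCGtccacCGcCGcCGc
Tgm4: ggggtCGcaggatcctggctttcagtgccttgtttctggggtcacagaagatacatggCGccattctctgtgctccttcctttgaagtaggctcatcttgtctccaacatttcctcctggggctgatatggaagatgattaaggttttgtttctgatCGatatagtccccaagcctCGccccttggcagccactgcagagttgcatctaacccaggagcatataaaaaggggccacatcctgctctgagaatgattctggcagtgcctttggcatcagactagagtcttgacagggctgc
Gm31160: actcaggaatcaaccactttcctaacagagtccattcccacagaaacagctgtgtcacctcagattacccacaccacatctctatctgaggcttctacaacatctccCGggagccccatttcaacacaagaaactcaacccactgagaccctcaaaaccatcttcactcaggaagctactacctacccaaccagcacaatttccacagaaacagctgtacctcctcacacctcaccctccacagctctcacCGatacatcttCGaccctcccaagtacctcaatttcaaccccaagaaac
Ntng2: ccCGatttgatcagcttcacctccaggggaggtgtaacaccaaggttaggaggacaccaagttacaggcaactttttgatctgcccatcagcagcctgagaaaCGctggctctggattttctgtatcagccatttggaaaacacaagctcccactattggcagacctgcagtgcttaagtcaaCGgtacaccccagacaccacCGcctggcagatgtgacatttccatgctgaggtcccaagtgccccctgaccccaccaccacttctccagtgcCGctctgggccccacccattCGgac
The windows of Tnfaip3, Cplane1 and Atxn2 hold 22, 29 and 39 CG dinucleotides, and their ratios were 5.02, 3.06 and 1.87. The windows of Tgm4, Gm31160 and Ntng2 hold 4, 3 and 6, and their ratios were -2.80, -0.96 and -0.89. The observed over expected CpG, which divides the number of CG by that expected from the C and G content, was 0.914, 0.743 and 1.05 in the windows of Tnfaip3, Cplane1 and Atxn2. It was 0.205, 0.250 and 0.275 in those of Tgm4, Gm31160 and Ntng2. Ratios chose these 6 windows, so the contrast among them is an illustration. All 62 hotspots at starts are treated below.

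As a set, the shared hotspots at gene ends looked much like other shared hotspots in strength and width. They were stronger and, taken over all ends, narrower than the knockout-only hotspots at gene ends, though at CpG-rich starts they were wider. Their median strength in the knockout list was 142 (interval 130 to 164), against 90 (88 to 93) for the 4551 knockout-only hotspots at gene ends and 151 (148 to 154) for the 10480 shared hotspots elsewhere. In the wild type list their median strength was 178 (157 to 215), against 182 (178 to 185) elsewhere. Strength ran from 28 to 1293 in the knockout list. The middle of the distribution, between the quartiles, was 84.8 to 253 for the shared hotspots at gene ends and 61.5 to 141 for the knockout-only ones.

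Their median width was 1582 bp (1558 to 1602) in the knockout list and 1768 bp (1742 to 1822) in the wild type list. Shared hotspots elsewhere were 1566 bp wide in the knockout list and 1766 bp in the wild type list, and knockout-only hotspots at gene ends 1742 bp (1732 to 1754) in the knockout list. By kind of end (the classes are defined below), knockout width was 1960 bp (1798 to 2314) for shared and 1760 bp (1748 to 1776) for knockout-only hotspots at CpG-rich starts, and 1568 bp (1486 to 1618) for shared and 1661 bp (1634 to 1690) for knockout-only ones at CpG-poor starts. At 3′ ends it was 1578 bp (1546 to 1602) for shared and 1610 bp (1500 to 1686) for knockout-only hotspots, with overlapping intervals. Shared hotspots at gene ends were narrower in the knockout list than in the wild type list, by a median change of -195 bp, and shared hotspots elsewhere by -194 bp. Only 56 of 280 (interval 15.5% to 25.2%) were wider in the knockout, where 17.5% of all autosomal shared hotspots were. Of the summed strength, the 280 made up 1.41% in the knockout list and 2.05% in the wild type list, and the knockout-only hotspots at gene ends made up 13.3% in the knockout list.

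**Figure D1:**
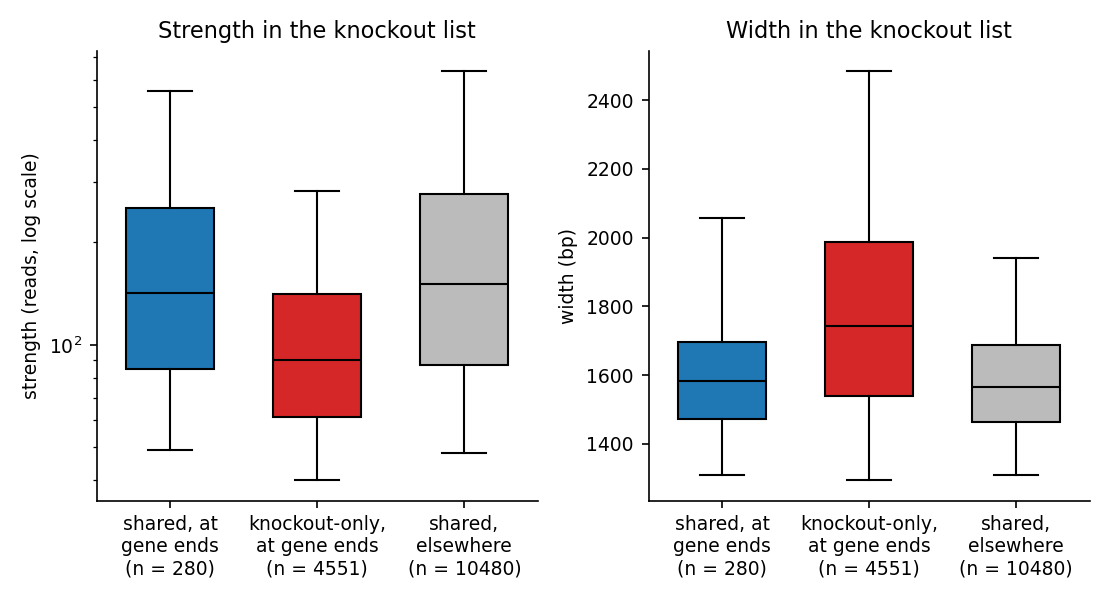
Strength (log scale, background-subtracted reads) and width (bp) in the knockout list of the shared hotspots at gene ends, the knockout-only hotspots at gene ends and the shared hotspots elsewhere. Boxes span the quartiles with the median as a line and whiskers run from the 5th to the 95th percentile; the medians are 142, 90 and 151 for strength and 1582, 1742 and 1566 bp for width.

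The relative strength of the shared hotspots at gene ends was a little lower in the knockout at the ends of protein-coding genes, and it was spread more widely. Their median ratio was -0.22 (-0.37 to -0.08) on the log2 scale, against -0.0043 (-0.027 to 0.017) for shared hotspots elsewhere. The interval held 0 when the ends of all annotated genes were used (-0.0825, -0.16 to 0.0094) and at transcription starts alone (-0.0884, -0.37 to 0.65). Of the 280, 109 had a higher and 171 a lower relative strength in the knockout. A ratio over 2-fold higher in the knockout was seen in 39 (13.9%, 10.1 to 18.5), where 12.4% of all autosomal shared hotspots were that much higher, and a ratio over 2-fold lower in 48 (17.1%, 12.9 to 22.1), where 15.9% were. Both shares were near the background. The SD of the ratio was 1.07 over these hotspots and 0.927 elsewhere, and the Spearman correlation between knockout and wild type strength was 0.61 across the 280 and 0.73 across the 10480, whose points share the same 2 libraries.

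The hotspots at gene ends were spread over all autosomes, from 7 on chromosome 19 to 22 on chromosome 2, and made up 1.90% of the shared hotspots of chromosome 8 and 3.40% of those of chromosome 7. Their median ratio was below that of the other shared hotspots of the same chromosome on 15 of 19 autosomes. Their knockout strength was lower than that of the others on 12 of 19, and their wild type strength on 8. They lay at 278 genes, since Eef2kmt and Tekt3 each had 2, and 21 of them had more than 1 gene end within 1 kb. The limit of 1 kb passes through a continuous range. Just inside it were Mafa at 997 bp (strength 84 in the knockout and 49 in the wild type), Tekt3 at 999 bp (45 and 43) and Cdh2 at 1000 bp (131 and 276). Just outside were A630001G21Rik at 1001 bp (115 and 216), Ephx3 at 1001 bp (218 and 222) and Masp1 at 1003 bp (162 and 84).

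**Figure D2:**
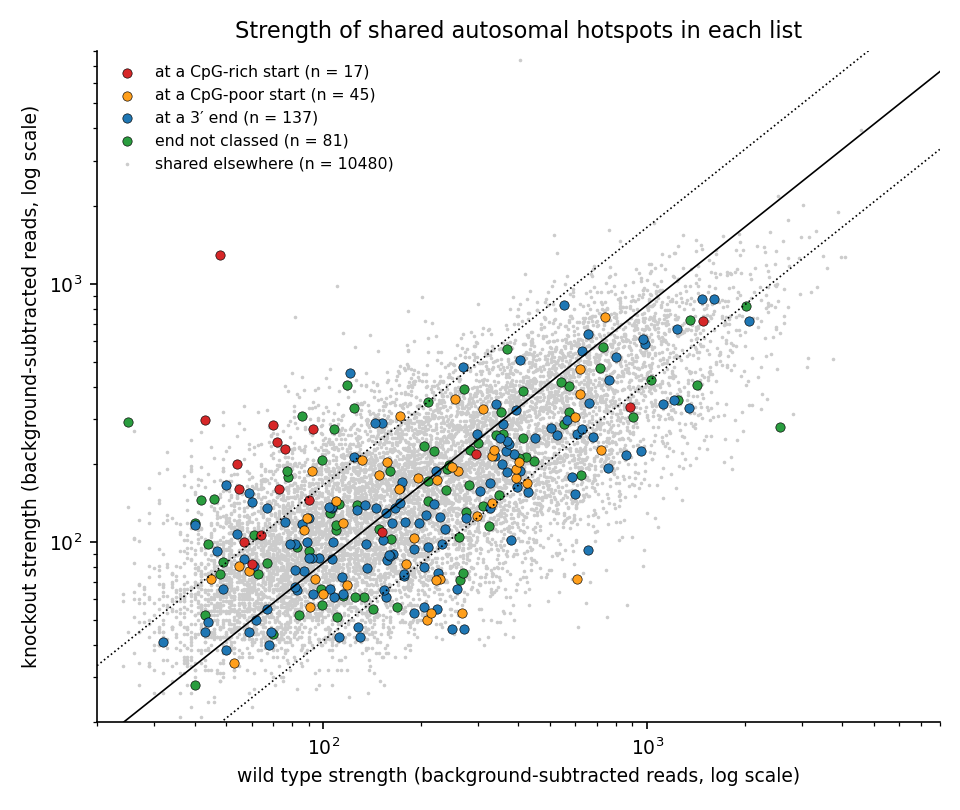
Strength of autosomal shared hotspots in the knockout list (y axis) against the wild type list (x axis), both in background-subtracted reads on log axes; coloured points are the 280 at gene ends by class and grey points those elsewhere. The solid line marks equal relative strength and the dotted lines 2-fold; 39 of the 280 lie above the upper and 48 below the lower dotted line, with Tnfaip3 highest above the line and Arf6 farthest below it.

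The mix of gene ends differed between the shared and the knockout-only hotspots. The strand of the gene was known for 199 of the 280 hotspots, and 62 of these 199 (31.2%, 24.8 to 38.1) were at the transcription start and 137 at the 3′ end. Among knockout-only hotspots at gene ends, 3592 of the 3682 with a known strand (97.6%, 97.0 to 98.0) were at the start. The other 81 shared hotspots, at genes without a promoter entry, could not be classed and are given as such. The starts differed in sequence too. A start was called CpG-rich when the observed over expected CpG of its promoter window was at least 0.6, a common criterion for CpG islands that was applied after the ratios had been seen. By it 17 of the 62 starts with a shared hotspot (27.4%, 16.9 to 40.2) were CpG-rich, against 3032 of the 3592 starts with a knockout-only hotspot (84.4%) and 8198 of the 16457 autosomal protein-coding promoters (49.8%). Shared hotspots were placed by their wild type centre, knockout-only ones by their knockout centre. A further 31 shared pairs had only their knockout centre within 1 kb of a gene end, with 24 at starts and 15 of these CpG-rich. They are left out of the shares of shared hotspots here and in the next paragraph, while 7 of the 280 had their knockout centre beyond 1 kb.

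Counted from the promoters, shared hotspots lay at 0.207% of CpG-rich starts and at 0.545% of CpG-poor starts. Knockout-only hotspots lay at 37.0% of CpG-rich starts and at 6.78% of CpG-poor starts. The median observed over expected CpG was 0.326 (0.250 to 0.438) at the 62 starts with a shared hotspot and 0.816 (0.807 to 0.824) at starts with a knockout-only hotspot. The promoter start lay within 100 bp of the end of the gene for 10 of the 17 CpG-rich and 39 of the 45 CpG-poor starts, and at up to 6670 bp from it for the others.

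The 17 shared hotspots at CpG-rich starts were weak in the wild type list and had higher relative strength in the knockout list. Their median strength was 219 (146 to 285) in the knockout and 72 (57 to 93) in the wild type, and their median ratio was 1.41 (0.72 to 2.04). Relative strength was over 2-fold higher in the knockout for 10 of the 17 (58.8%, 32.9 to 81.6), against 12.4% of all autosomal shared hotspots. It was over 2-fold lower for 1, Sned1 (5.88%), against 15.9%. Of the 17, 11 had a wild type strength of 24 to 81, and 32.1% of shared hotspots elsewhere in that range were over 2-fold higher. The counting interval of the ratio lay wholly above 0 for 13 of the 17 and wholly below 0 for 2. Such interval counts were made only for the classes at gene ends, so no share over all shared hotspots stands beside them. In the wild type list, 14 of the 17 were below the median of the autosomal shared hotspots. In the knockout list their median of 219 was above that of the 3032 knockout-only hotspots at CpG-rich starts, 93 (90 to 95).

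Tnfaip3, which encodes the ubiquitin-editing inhibitor of NF-kB signalling A20, had the highest ratio of the 280. Its hotspot on chromosome 10 ran from 19014397 to 19016357 in the knockout list and from 19014621 to 19015993 in the wild type list, across the start of the gene. Strength was 1293 (1223 to 1366) in the knockout and 48 (34.0 to 65.0) in the wild type, a relative strength 32.5-fold higher in the knockout, with a ratio of 5.02 (4.58 to 5.52). It ranked 135 in the knockout list and 12389 in the wild type list, and it was the strongest of the 280 in the knockout. Cplane1, on chromosome 15, encodes a protein needed for cilia. Its hotspot had a strength of 298 in the knockout and 43 in the wild type, with a ratio of 3.06 (2.59 to 3.58).

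Pcdh9, on chromosome 14, encodes a protocadherin, a cell adhesion protein, and had a strength of 285 in the knockout and 70 in the wild type (ratio 2.29). Elapor1, on chromosome 3, which encodes a membrane protein of endosomes and lysosomes, had a strength of 201 in the knockout and 54 in the wild type (ratio 2.17). Atxn2, the gene of the RNA-binding protein ataxin, had 230 in the knockout and 76 in the wild type (ratio 1.87). The adhesion molecule gene Mcam had 274 in the knockout and 93 in the wild type (ratio 1.83), and the potassium channel gene Kcnk5 had 160 in the knockout and 55 in the wild type (ratio 1.81). All these wild type values lie well below 182, the median of shared hotspots in that list. Coq3, a methyltransferase gene of coenzyme Q synthesis, had 161 in the knockout and 73 in the wild type (ratio 1.41). Thap12 had 100 in the knockout and 57 in the wild type (ratio 1.08), Cadps, a gene of vesicle exocytosis, 106 in the knockout and 64 in the wild type (ratio 1.00) and Dnajc9, a gene of a histone co-chaperone, 146 in the knockout and 90 in the wild type (ratio 0.97). The smallest ratio whose interval lay above 0 was that of Akap8, a kinase-anchoring protein gene, with 82 in the knockout and 60 in the wild type (ratio 0.72, 0.17 to 1.29).

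The 4 other CpG-rich starts had lower relative strength in the knockout, and all were in the stronger part of the wild type list or near its median. Jtb had a strength of 219 in the knockout and 295 in the wild type (ratio -0.16), and Gcc2, the gene of a golgin, 109 in the knockout and 152 in the wild type (ratio -0.21). The counting intervals of both held 0. The cannabinoid receptor gene Cnr1 had 715 in the knockout and 1481 in the wild type (ratio -0.78). Sned1, which encodes an extracellular matrix protein, had 332 in the knockout and 884 in the wild type (ratio -1.14). The hotspots of Cnr1 and Sned1 were centred 930 and 882 bp from the gene end in the knockout list, and 941 and 920 bp in the wild type list.

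**Figure D3:**
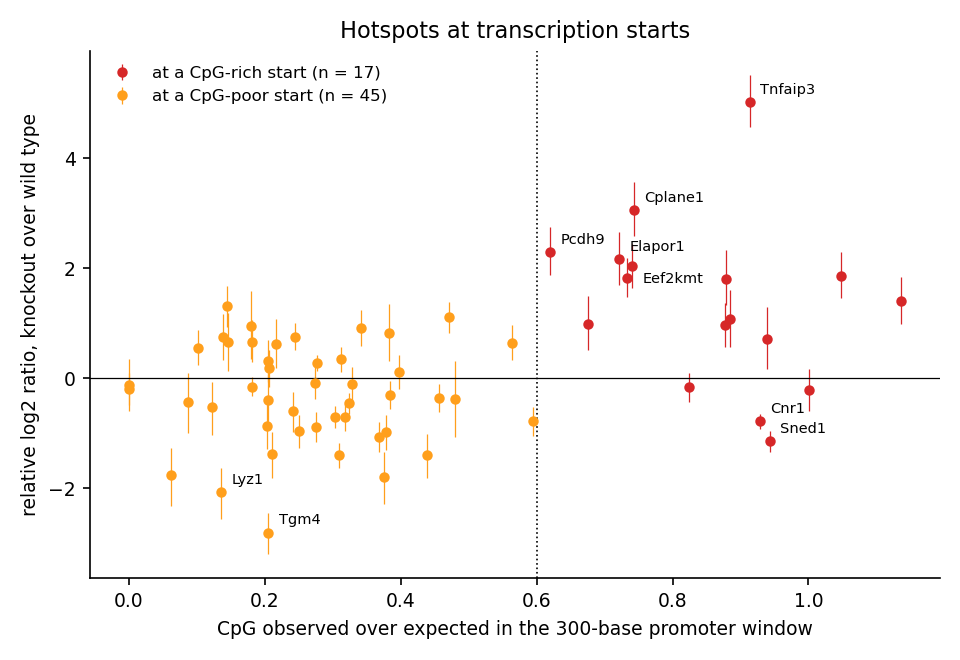
Knockout over wild type relative strength (log2, y axis) of the 62 shared hotspots at transcription starts against the observed over expected CpG of the promoter window (x axis); error bars are 95% counting intervals and the dotted vertical line is at 0.6. Right of the line 13 of 17 hotspots lie above 0 with their whole interval, and left of it 14 of 45 do.

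Hotspots at CpG-rich starts were also centred nearer to the start in the knockout list, and most were wider there. Their median width was 1960 bp in the knockout list and 1758 bp in the wild type list. The median change was 230 bp, with an interval that held 0 (-22 to 656), and 142 bp (-252 to 656) at a CpG limit of 0.5. In the knockout 11 of the 17 were wider (64.7%, 38.3 to 85.8), against 17.5% of all autosomal shared hotspots. The knockout centre was nearer the start in 17 of 17, by over 100 bp in 12, with a median change in distance of -184 bp (-259 to -100). The median distance to the start was 323 bp in the knockout list and 818 bp in the wild type list. Eef2kmt, which encodes the methyltransferase of the translation factor eEF2, had the largest move. Its hotspot was 3534 bp wide and centred 124 bp from the start in the knockout list, and 1446 bp wide and centred 975 bp from it in the wild type list, with a strength of 245 in the knockout and 72 in the wild type (ratio 2.04). A separate hotspot at the 3′ end of the same gene had a strength of 63 in the knockout and 115 in the wild type (ratio -0.60), with centres 27 bp from the end in the knockout list and 29 bp in the wild type list. The 2 ends of this gene thus had ratios of opposite sign.

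**Figure D4:**
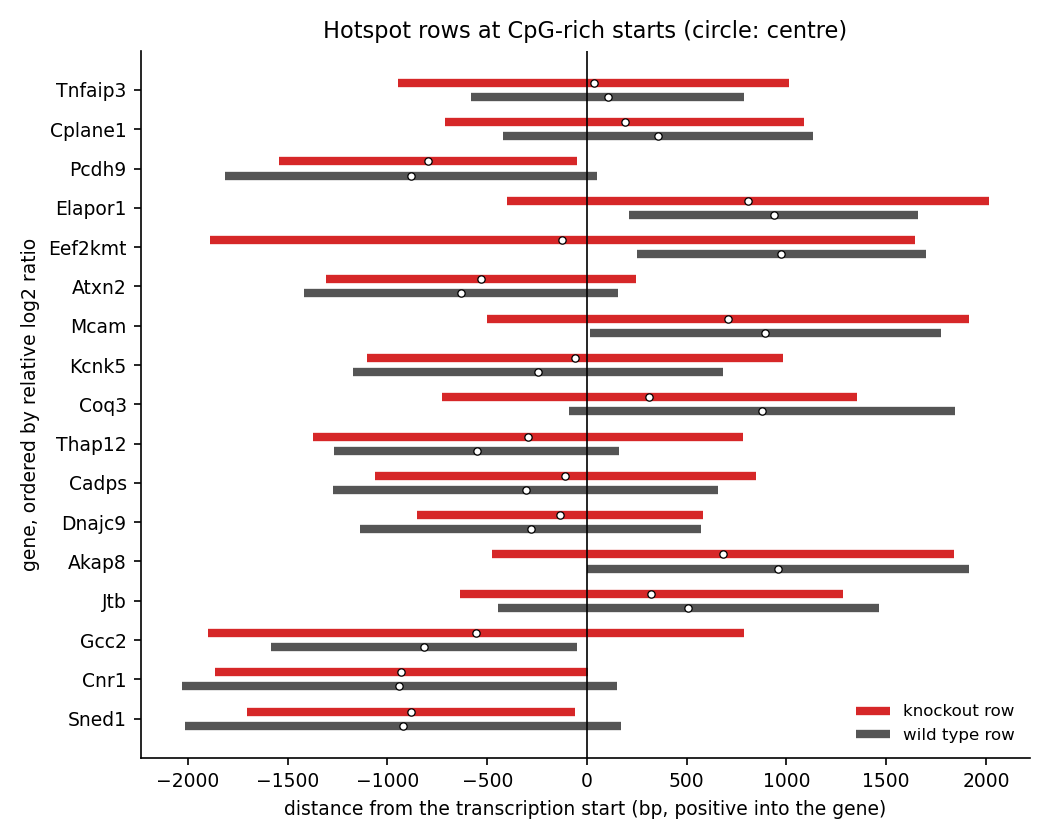
Extent of the 17 shared hotspots at CpG-rich starts, drawn as distance in bp from the gene end at the start side, with the knockout hotspot (red) above the wild type hotspot (grey) for each gene and circles at the centres. The knockout centre is the nearer one in 17 of 17, and Eef2kmt shows the largest extension, 3534 bp in the knockout against 1446 bp in the wild type.

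The 45 hotspots at CpG-poor starts behaved otherwise. Their median strength was 161 (104 to 189) in the knockout and 215 (157 to 268) in the wild type, with a median ratio of -0.29 (-0.60 to 0.18). This interval lay below that of CpG-rich starts at the CpG limit of 0.6, but not at other limits. At 0.5 the median ratio was 1.08 (-0.16 to 2.04) at CpG-rich and -0.29 (-0.60 to 0.18) at CpG-poor starts, and at 0.7 it was 1.41 (-0.16 to 2.04) and -0.19 (-0.53 to 0.28). Relative strength was over 2-fold higher in the knockout for 2 (4.44%, 0.543 to 15.1), against 12.4% of all autosomal shared hotspots. It was over 2-fold lower for 8 (17.8%, 8.002 to 32.05), against 15.9%. Both intervals held the share over all. Width was 1568 bp in the knockout list and 1740 bp in the wild type list. In the knockout 7 were wider (15.6%, 6.49 to 29.5), near the 17.5% of all autosomal shared hotspots. The median change in distance to the start was 11 bp (-35 to 36). The 2 over 2-fold higher were Il23r, an interleukin receptor gene, with 189 in the knockout and 92 in the wild type (ratio 1.31), and the zinc finger gene Zfp616, with 308 in the knockout and 172 in the wild type (ratio 1.11). The lowest was Tgm4, which encodes a transglutaminase of the prostate, with 72 (55.8 to 91.2) in the knockout and 606 (558 to 657) in the wild type. Its ratio was -2.80 (-3.19 to -2.44), 6.98-fold lower in the knockout, and its centre was 40 bp from the start in the knockout list and 46 bp in the wild type list. Lyz1, a lysozyme gene, had 53 in the knockout and 268 in the wild type (ratio -2.07), and the keratin gene Krt2 50 in the knockout and 209 in the wild type (ratio -1.79), with a wild type centre 15 bp from the start.

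Hotspots at 3′ ends were the largest class. The median strength of these 137 was 127 (102 to 141) in the knockout and 177 (156 to 226) in the wild type, and their median ratio of -0.38 (-0.56 to -0.13) was the lowest of the classes. The interval of the ratio lay wholly above 0 for 28 and wholly below 0 for 70, counts that have no share over all shared hotspots beside them. Relative strength was over 2-fold higher in the knockout for 12 (8.76%, 4.61 to 14.8), against 12.4% of all autosomal shared hotspots. It was over 2-fold lower for 26 (18.98%, 12.79 to 26.56), against 15.9%. Both intervals held the share over all. Width was 1578 bp in the knockout list and 1766 bp in the wild type list. In the knockout 25 were wider (18.2%, 12.2 to 25.7), near the 17.5% of all autosomal shared hotspots. The median change in distance to the 3′ end was 2 bp (-9 to 18). The 90 knockout-only hotspots at 3′ ends had a median strength of 68.5 (61 to 80) and a width of 1610 bp. Only 3 of the 137 had a CpG-rich annotated start of any gene within 1 kb, and none of these 3 was over 2-fold higher.

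Fam217b on chromosome 2 had the wild type centre nearest to a gene end, at 6 bp. Its strength was 93 in the knockout and 655 in the wild type, with a ratio of -2.55 (-2.88 to -2.23). The next nearest at 3′ ends were C130074G19Rik at 10 bp (120 in the knockout and 76 in the wild type, ratio 0.93), Cib1 at 16 bp (90 and 164, ratio -0.60) and Lrrc42 at 18 bp (189 and 404, ratio -0.83), so that closeness to the 3′ end went with ratios of either sign. Herpud2 had 46 in the knockout and 272 in the wild type (ratio -2.29), and the sorting nexin gene Snx18 46 in the knockout and 249 in the wild type (ratio -2.17). Herc3, which encodes a ubiquitin ligase, had 225 in the knockout and 959 in the wild type (ratio -1.82). The RNA helicase gene Ddx46 had 55 in the knockout and 225 in the wild type (ratio -1.76), and Dnajc10, which encodes a disulfide reductase of the endoplasmic reticulum, 331 in the knockout and 1347 in the wild type (ratio -1.76). The highest ratio at a 3′ end was at Gas2l2 on chromosome 11, with 451 in the knockout and 121 in the wild type (ratio 2.17, 1.87 to 2.47). Its width was 1534 bp in the knockout list and 1630 bp in the wild type list, and its centre was 330 bp from the end in the knockout list and 329 bp in the wild type list. The centre there differed by 1 bp. At 12 of the 17 CpG-rich starts the centre was over 100 bp nearer the start in the knockout list, but at Cnr1 it moved by 11 bp.

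The hotspots at 3′ ends named next were chosen for being among the strongest at gene ends in the knockout or the wild type list. Their high strength in that list was thus fixed by the choice. Strength in the wild type list did not always go with strength in the knockout list, as Fam217b above shows. Crygs, a lens crystallin gene, had 873 in the knockout and 1610 in the wild type (ratio -0.61), and Ntn4, which encodes a netrin, 873 in the knockout and 1473 in the wild type (ratio -0.49). Smarca2, which encodes the chromatin remodelling ATPase BRM, had 827 in the knockout and 555 in the wild type (ratio 0.84, 0.69 to 1.00), higher in the knockout also as deposited. Ccdc50 had 720 in the knockout and 2056 in the wild type (ratio -1.24), with a width of 1826 bp in the knockout list and 4280 bp in the wild type list, and its centre was 551 bp farther from the gene end in the knockout list.

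The 81 hotspots at genes without a strand had a median ratio of -0.12 (-0.38 to 0.16), with a strength of 172 in the knockout and 210 in the wild type. Over 2-fold higher in the knockout were 15 (18.5%, 10.8 to 28.7), against 12.4% of all autosomal shared hotspots. Over 2-fold lower were 13 (16.0%, 8.83 to 25.9), against 15.9%. Both intervals held the share over all. These 81 hotspots held the second highest and the lowest ratio of the 280. Lypla1, which encodes a thioesterase that removes palmitate from proteins, had 291 (257 to 328) in the knockout and 25 (14.9 to 38.2) in the wild type, a ratio of 3.81 (3.17 to 4.58) or 14.0-fold higher. Arf6, which encodes a small GTPase of endosomal traffic, had the lowest ratio of the 280 and the strongest hotspot of them in the wild type, with 278 (246 to 313) in the knockout and 2568 (2468 to 2670) in the wild type. Its ratio was -2.94 (-3.12 to -2.76), 7.66-fold lower in the knockout. The junctional adhesion gene Jam2 had 309 in the knockout and 86 in the wild type (ratio 2.11), Ankrd46 146 in the knockout and 42 in the wild type (ratio 2.07) and the olfactory receptor gene Olfr553 404 in the knockout and 118 in the wild type (ratio 2.04).

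Over all shared hotspots, those weak in the wild type list had higher ratios, so the classes were set beside shared hotspots of like wild type strength, in 5 bins of equal size over all autosomal shared hotspots. From the weakest bin (strength 24 to 81) to the strongest (488 to 4557), the median ratio of the hotspots at gene ends was 1.00, 0.30, -0.38, -0.56 and -0.75. Elsewhere it was 0.66, 0.28, -0.04, -0.33 and -0.73. The intervals of both groups were apart in the weakest bin, where hotspots at gene ends were at 0.70 to 1.41 and others at 0.62 to 0.70 without overlap before rounding, and in the middle bin (139 to 243), where they were at -0.60 to -0.14 and others at -0.10 to 0.01. In the other 3 bins they overlapped.

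The classes differed within bins. In the weakest bin, the 11 hotspots at CpG-rich starts had a median ratio of 1.87 (1.00 to 3.06) and 9 (81.8%) were over 2-fold higher. Of the 2157 shared hotspots elsewhere in this bin, 692 (32.1%) were over 2-fold higher. The 15 at ends not classed had a median ratio of 1.07 (0.54 to 1.84), with 9 (60.0%) over 2-fold higher. The 21 at 3′ ends had 0.68 (-0.02 to 1.26), with 7 (33.3%) over 2-fold higher. The intervals of the median ratio of these 3 classes overlapped. In the 2 weakest bins together, the median ratio was 1.83 (1.00 to 2.29) for 13 hotspots at CpG-rich starts, 0.64 (-0.40 to 0.92) for 14 at CpG-poor starts, 0.32 (-0.02 to 0.63) for 51 at 3′ ends and 0.58 (0.30 to 1.42) for 34 not classed. It was 0.49 (0.46 to 0.51) for 4218 shared hotspots elsewhere. The median was highest at CpG-rich starts, but within these bins their wild type strength was lower too, with a median of 64 against 91.5 at CpG-poor starts, 86 at 3′ ends, 85 at ends not classed and 81 elsewhere. The part of this lower strength in the higher ratio was not tested. Their median width change in these bins was 246 bp (-22 to 726), against -78 bp at CpG-poor starts, -96 bp at 3′ ends and -96 bp elsewhere. In the 3 stronger bins, hotspots at 3′ ends had a median ratio of -0.61 (-0.81 to -0.56, n = 86), against -0.38 (-0.41 to -0.35) for 6262 elsewhere. At CpG-poor starts it was -0.60 (-0.96 to -0.10, n = 31).

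**Figure D5:**
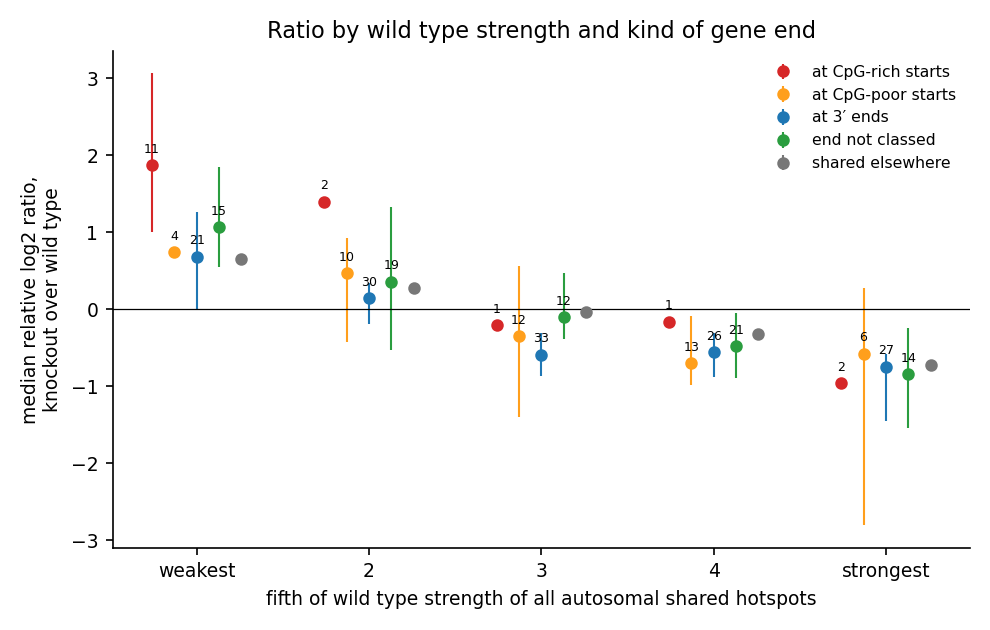
Median knockout over wild type relative strength (log2, y axis) in 5 bins of wild type strength from weakest to strongest (x axis), for the classes of shared hotspots at gene ends and for shared hotspots elsewhere; error bars are intervals of the median from ranks and the numbers are hotspots per point, with no bar under 6 hotspots. In the weakest bin CpG-rich starts are at 1.87, 3′ ends at 0.68 and hotspots elsewhere at 0.66.

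The promoter windows of the 62 hotspots at starts were searched for 4 motifs on both strands, each counted on its own, so that matches may share bases. GNTGCTNCT, a short form of the motif that the PRDM9 of B6 mice is known to bind, matched in 9 windows (14.5%), of which 8 were CpG-poor and 1 CpG-rich, against 6.89% of the 16457 autosomal protein-coding promoters. GGGCGG, the GC box, matched in 11 of the 17 CpG-rich and 5 of the 45 CpG-poor windows, against 47.3% of all. CCAAT matched in 3 of 17 CpG-rich and 20 of 45 CpG-poor windows, against 39.1% of all, and TATAAA in 1 of 17 and 10 of 45, against 13.5% of all. These matches describe the letters of a window that covers only a part of each hotspot. The shares over all promoters mix both CpG classes and are not matched by class. CpG-rich windows make up 49.8% of all promoters but 27.4% of the 62. GGGCGG itself holds a CG, which also enters the definition of the classes. Across the 62, the Spearman correlation between observed over expected CpG and the ratio was 0.34.

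The other end of the same genes was examined as well. Of the 137 genes with a shared hotspot at the 3′ end, 37 (27.0%, 19.8 to 35.3) had a knockout-only hotspot at their start, against 21.8% of all 16457 genes with a strand. Of the 62 genes with a shared hotspot at the start, 1 (1.61%, 0.04 to 8.66) had a knockout-only hotspot at the 3′ end, against 0.547% of all 16457. The centres of the 280 hotspots moved little as a set. The median distance to the gene end was 534 bp in the knockout list and 554.5 bp in the wild type list, with a median change of -2 bp (-11 to 7). The centre was over 100 bp nearer the end in the knockout for 42 (15.0%, 11.0 to 19.7) and over 100 bp farther for 27 (9.64%). Elsewhere, 10.6% were nearer and 10.3% farther. The gene end itself lay inside the hotspot for 220 in the knockout list and for 246 in the wild type list.

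Few genes of the lists examined had a shared hotspot at an end. Over all 20665 autosomal protein-coding genes, 278 (1.35%) had one and 4526 (21.9%) had a knockout-only hotspot. Among 45 genes of meiotic recombination and synapsis, 2 had a shared and 17 a knockout-only hotspot at an end. Hsf2bp, whose protein brings BRCA2 to meiotic breaks, had 356 in the knockout and 1206 in the wild type at its 3′ end (ratio -1.49, -1.67 to -1.32). Mcmdc2, a helicase-like gene needed for meiotic break repair, had 214 in the knockout and 422 in the wild type (ratio -0.71). Among 24 genes of NF-kB signalling and inflammation, 2 had a shared hotspot, Tnfaip3 and the endotoxin receptor gene Tlr4, with 116 in the knockout and 109 in the wild type (ratio 0.36, -0.05 to 0.77), and 9 had a knockout-only hotspot.

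No shared hotspot lay at an end of 39 ubiquitously expressed, 31 spermatid, 50 developmental transcription factor or 25 immediate early genes. At the share of 1.35% over all autosomal protein-coding genes, lists this short would hold few or none, so the absences are near background. In these lists 18 (46.2%), 7 (22.6%), 3 (6.0%) and 7 (28.0%) had a knockout-only hotspot, against 21.9% of all. Clustered receptor families had about as many shared as knockout-only hotspots. Of 1104 olfactory receptor genes, 7 (0.634%) had a shared and 6 (0.543%) a knockout-only hotspot, and of 354 vomeronasal receptor genes 3 had a shared and 3 a knockout-only one. The ratios of the 7 at olfactory receptor genes ran from -0.42 at Olfr1395 to 2.04 at Olfr553. The strongest of the receptor hotspots was at Vmn1r184, with 822 in the knockout and 2015 in the wild type (ratio -1.02). Of 391 zinc finger genes with Zfp names, 7 (1.79%) had a shared and 98 (25.1%) a knockout-only hotspot. The ratios of the 7 shared ones ran from -0.77 at Zfp90 to 1.11 at Zfp616, with 4 of the 7 above 0.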

How the data were processed

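DMC1-SSDS hotspot lists of Ankrd31 knockout and wild type testis, 1 per genotype, were used. The sources used here do not say whether a list pools both samples of a genotype. H3K4me3 and input samples were not analysed here. CASAVA, Bowtie2, BWA and MACS2 and the build mm10 are named in the submitters' processing notes, without roles or versions. Per the file headers, the authors deposited for each hotspot the read count, a background signal, the strength signal (count minus background), the strength as a percent of the list's sum, and a rank. No normalization between lists was visible. A list holds only hotspots past the authors' threshold, so shared and knockout-only depend on it, and the weakest strength was 16 in the knockout and 18 in the wild type.

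Hotspots were paired by overlap with Python 3.11.15, numpy 2.4.6, pandas 2.3.3 and scipy 1.17.1 (figures: matplotlib 3.10.9), a step tested on simulated data. Coordinates are as the lists give them, and whether they count from 0 or 1 is not stated. Gene ends came from RefSeq GRCm38.p6, the strand and promoters from its promoter table. The hotspots and gene lists were chosen with earlier results of these data known. Named were the 10 highest and 10 lowest ratios, the 5 strongest per list, the 5 nearest a gene end, the 5 with the largest move of the centre (1 of them is not reported here), hotspots at genes of the lists, and those next to the 1 kb limit. The other CpG-rich starts, the CpG-poor starts over 2-fold higher and the 3′ end of Eef2kmt were named after their values were seen. Alternatives were windows of 500 bp and 2 kb, the knockout centre, 50% overlap, other strength scales, unsubtracted reads, a stricter threshold (strength at or above the list median), all annotated genes, starts or 3′ ends only, CpG limits of 0.5 and 0.7, and promoters within 100 bp of the gene end. Those on CpG were chosen after seeing the data.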

Additional observations from a re-analysis of the deposited data

How the results depend on the processing

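No paired analysis was possible because each genotype has 1 list without replicate values, and leaving out a replicate was not possible for the same reason. The median ratio kept its sign under all alternatives run, though its interval held 0 with all annotated genes and at starts alone. Signs turned for knockout strength against hotspots elsewhere (at starts) and for knockout width against them (stricter threshold). Wild type width against them turned from 2 bp to -18 bp (stricter threshold) and -20 bp (starts). The change in distance turned from -2 bp to 2 bp at 3′ ends. At CpG-poor starts it turned from 11 bp to -6 bp (CpG limit of 0.7) and -7 bp (promoters within 100 bp of the gene end). All these values were small in the main comparison. Hotspots over 2-fold higher outnumbered those lower by knockout centres (49 against 48) and at starts. Of 169 recomputed values, 131 stayed within their spread or, for counts, within 1.5 times. Some of these could not change, such as widths and distances when only the strength scale was altered. The tally is thus not a measure of robustness. The median ratio of -0.22 was -0.49 with strength as deposited, -0.41 with shares of summed strength, -0.0825 with all annotated genes and -0.38 at 3′ ends. Minus that of hotspots elsewhere it was -0.22, and -0.076 with all annotated genes and -0.38 at 3′ ends. With strength as deposited, 74 hotspots were over 2-fold lower. The number of hotspots was 121 with a 500 bp window (22 over 2-fold lower, 12 higher), 565 with 2 kb (98 lower, 72 higher), 163 with the stricter threshold (30 lower, 8 higher) and 634 with all annotated genes (103 lower, 92 higher). Starts had 9 lower and 12 higher, and 3′ ends 26 lower and 12 higher. The log2 of median knockout strength over that of hotspots elsewhere, -0.09, was -0.28 with the stricter threshold, 0.18 at starts and -0.25 at 3′ ends. Over knockout-only hotspots at all gene ends, 0.66, it was 0.31, 0.93 and 0.50 under these settings. For starts and 3′ ends, only the shared hotspots were limited to that kind of end. By kind, median knockout strength was 171.5 for shared and 89 for knockout-only hotspots at starts. At 3′ ends it was 127 and 68.5. Knockout width minus that of knockout-only hotspots at all gene ends, -160 bp, was -308 bp with the stricter threshold and -133 bp at starts. Minus that of hotspots elsewhere, 16 bp, it was -18 bp and 43 bp. The change in distance, -2 bp, was -14 bp by knockout centres and -36.5 bp at starts. Hotspots at CpG-poor starts over 2-fold higher numbered 1 with strength as deposited and 1 with shares. CpG-rich starts numbered 10 where the promoter lay within 100 bp of the gene end, with a median ratio of 1.82. The cause of these shifts was not tested, beyond the smaller or larger sets. Wild type strengths under 100 reads leave wide counting intervals, and a hotspot near the threshold of a list can be missed in it.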

Other observations

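A further 31 shared autosomal pairs had their knockout centre, but not their wild type centre, within 1 kb of a gene end, and are outside the 280. Their median ratio was 0.74 (0.08 to 1.30), with 13 over 2-fold higher and 2 over 2-fold lower in the knockout. Of these 31, 24 were at starts, 15 of them CpG-rich, and 2 at 3′ ends. Map7, a microtubule-binding protein gene, had a strength of 320 in the knockout and 49 in the wild type (ratio 2.98) and a width of 3474 bp in the knockout list and 1494 bp in the wild type list. Cfl2, which encodes the muscle cofilin, had 225 in the knockout and 50 in the wild type (ratio 2.44), and Insig1, a regulator of sterol synthesis, 330 in the knockout and 92 in the wild type (ratio 2.11). The 2 lower ones were Sycp2, a gene of the synaptonemal complex, with 168 in the knockout and 623 in the wild type (ratio -1.62), and the histone methyltransferase gene Ehmt1, with 147 in the knockout and 518 in the wild type (ratio -1.55). The presence of the knockout centre near a gene end chose these pairs, so their values are a description, and the genes named here were chosen after their values were seen. In the other direction, 7 of the 280 had their knockout centre beyond 1 kb, with a median ratio of 0.73.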
